A study of Mus musculus with 4 samples.

Results

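The polyamine genes described here are 8 genes of polyamine synthesis, breakdown and control, chosen by name from the 23482 genes that the deposited table lists. Odc1, Amd1, Srm and Sms encode the enzymes of synthesis, Sat1 and Smox encode enzymes of breakdown, and Oaz1 and Azin1 encode regulators of ornithine decarboxylase. All 8 were listed. Their RNA was measured by sequencing in the quadriceps, a thigh muscle, of FVB/N mice aged 6 to 8 weeks. The control group is 2 libraries from non-transgenic muscle, and the transgenic group is 2 libraries from muscle of mice carrying Thbs1 as a transgene, which encodes the secreted glycoprotein thrombospondin-1. The labels do not name the promoter or the cell type that drives the transgene. Whether 2 libraries of 1 group are from different mice is not said there either, so each p-value reflects how far these libraries differ, and that difference may be technical.

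Polyamines are small, positively charged molecules that bind RNA and DNA and are needed for growth and for translation. Ornithine decarboxylase makes putrescine from ornithine, and spermidine synthase and spermine synthase then add aminopropyl groups that come from decarboxylated S-adenosylmethionine, the product of the enzyme that Amd1 encodes. Spermidine/spermine acetyltransferase and spermine oxidase run the chain back, antizyme sends ornithine decarboxylase to the proteasome, and antizyme inhibitor binds antizyme and so frees the decarboxylase. In skeletal muscle of mice, synthesis is known to respond to growth stimuli.

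The sequences printed here include short elements in the transcripts through which polyamines act on translation. The promoters printed are those of Odc1 and Amd1, a called pair that moved in opposite directions. The mouse antizyme transcript holds a stop codon inside its reading frame, which ribosomes pass by a shift of frame when polyamines are abundant. In its line the capitals mark the last codon before the shift and the stop codon, on positions 70 to 99 of a GENCODE transcript of Oaz1, and 151 codons follow without a stop in the shifted frame. The Amd1 transcript starts with a short upstream reading frame known from mammals to hold back translation when polyamines are abundant. Its capitals mark the whole upstream frame of 6 codons and a stop, on positions 8 to 37 of a GENCODE transcript of Amd1.
Oaz1 frameshift site: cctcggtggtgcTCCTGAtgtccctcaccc
Amd1 upstream reading frame: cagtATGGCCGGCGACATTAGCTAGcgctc
RNA levels alone were measured here, so these values do not bear on the use of either element.

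The promoters of Odc1 and Amd1, windows of 300 bases that lie mostly before the start site, are from RefSeq on GRCm38.p6. They are given on the strand of the gene, 5′ to 3′, at chr12:17544623-17544922 on the forward strand and chr10:40302139-40302438 on the reverse strand. Capitals mark matches on either strand to the GC box GGGCGG and to TGACG, the core of a cAMP response element.
Odc1 promoter: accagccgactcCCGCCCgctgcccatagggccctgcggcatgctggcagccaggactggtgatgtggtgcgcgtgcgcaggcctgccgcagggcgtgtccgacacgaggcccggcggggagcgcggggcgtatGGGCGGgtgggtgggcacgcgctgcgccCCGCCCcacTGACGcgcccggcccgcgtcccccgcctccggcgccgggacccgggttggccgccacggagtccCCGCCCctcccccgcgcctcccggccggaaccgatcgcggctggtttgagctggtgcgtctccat
Amd1 promoter: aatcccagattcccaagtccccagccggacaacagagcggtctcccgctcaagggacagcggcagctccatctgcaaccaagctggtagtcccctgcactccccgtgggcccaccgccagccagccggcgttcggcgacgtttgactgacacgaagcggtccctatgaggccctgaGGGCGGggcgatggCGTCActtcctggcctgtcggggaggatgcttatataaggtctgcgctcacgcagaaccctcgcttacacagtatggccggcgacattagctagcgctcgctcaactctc
The Odc1 window was 78.0% G and C and held 4 GC boxes and 1 TGACG, and the Amd1 window was 63.0% G and C and held 1 of each. Over 32851 promoter windows of the same length, 35.7% held a GC box and 20.8% a TGACG on either strand. The E-box CACGTG, the site that Myc is known to bind, was in 7.15% of those windows, and TGATGNAAT, a composite element bound by C/EBP and ATF4, in 0.965%. Of the 6 genes with a window, Sms held the E-box in 1 of its 2 windows, and neither set of letters was in the windows of the other 5. A match describes the letters of a window and not the binding of a factor. Sites outside these windows were not searched, so the lack of a match holds for the window alone.

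The libraries held 18815221 to 20053685 reads in genes, and the unit is RPKM, reads divided by the length of the gene model in kilobases and by the size of the library. Thbs1 was at 8.61 and 12.2 RPKM in control muscle against 12900 and 15411 in transgenic muscle, where it took 12.0% and 14.4% of the reads. A log2 fold change here is transgenic minus control of log2(RPKM + 1), a scale that shrinks the change of genes with low values. With Thbs1 left out of the library sizes its median over all tested genes moved from 0.10 to 0.26, and with median-of-ratios scaling to -0.04, so a change is read against that shift. Markers of muscle fibres were abundant in every library, with summed levels of 36455 and 41450 RPKM in controls and 23934 and 27425 in transgenics. By limma 0 of 10 were called, and limma-voom called 2. At an unadjusted limma p under 0.05 there were 6, beside 2791 of all 10015 tested genes. Of 15 macrophage markers 11 were tested, with 10 called higher and 0 lower, beside 6.25% and 1.22% of all tested genes. Their sums were 95.4 and 64.2 against 308 and 276 RPKM, with none listed at 0 in all libraries. Cd68, at 0.818 and 0.290 RPKM in controls, was tested only through its transgenic level. Below the filter, Ptprc and Itgam were higher in both transgenic libraries than in both controls, and Cd163 overlapped between the groups. Of 8 fibroblast markers 2 were called higher and 0 lower (sums of 465 and 274 against 574 and 516 RPKM). Adipocyte markers summed to 936 RPKM in transgenic library 1 against 103 to 144 in the others, so that library stands apart for them. By limma 0 of 4 tested adipocyte and 0 of 7 endothelial markers were called, with 0 at an unadjusted p under 0.05 and 0 by limma-voom. Of 5 satellite cell markers 2 were tested and 1, Sdc4, was called higher, a call lost in 8 of 12 alternatives. Those below the filter did not rise together. Pax7 was at 0.285 and 0.285 RPKM in controls against 0.121 and 0.131 in transgenics. Calcr had 12 and 4 reads against 0 and 1, and Myf5 overlapped between the groups. No T, B or neutrophil marker reached the filter, with 2 of the T and B markers at 0 in all libraries. In bulk RNA, fewer cells of a type and less RNA per cell cannot be told apart.

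Within the polyamine genes, RNA for the first enzyme of the route was higher and RNA for the enzyme that feeds the later steps was lower. The level of Amd1 cannot be told from that of its copy Amd2, described below. Odc1 was 2.75-fold higher in transgenic muscle, Amd1 was 2.48-fold lower, and Sat1, which starts the breakdown of spermidine and spermine, was 2.52-fold higher. All 8 genes were at 1 RPKM or more in every library and were tested. With limma at an adjusted p under 0.05 over all tested genes, 3 of the 8 were called, 2 higher and 1 lower, where 7.47% of the 10015 tested genes were called, 6.25% higher and 1.22% lower. The libraries of the groups did not overlap for any of the 8 genes, which was also so for 58.1% of tested genes. In the authors' deposited table, 4 of the 8 had an adjusted p under 0.1, Odc1, Amd1, Sat1 and Azin1. Of the 17769 genes with a value there 9.20% did, a wider set that also holds genes below the filter of the limma test. The median log2 fold change of the 8 was 0.29, beside 0.10 over all tested genes, and 4 were positive and 4 negative. Without control library 2 limma called 1 gene in all, Thbs1, so every other call named here is lost in that fit.

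**Figure D1:**
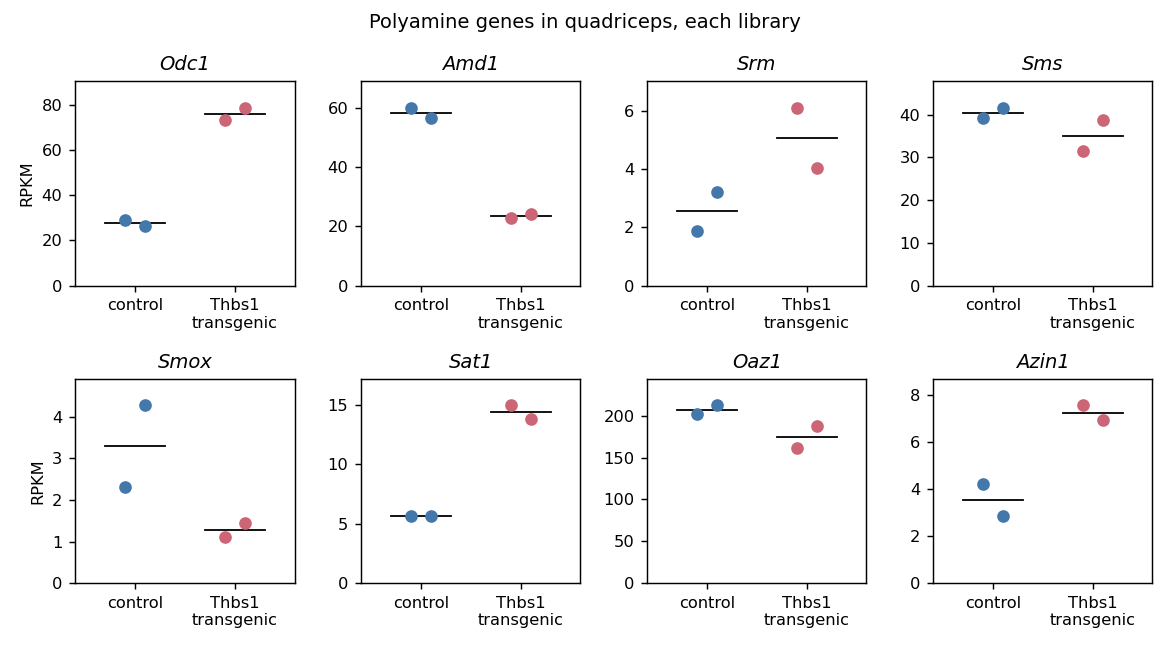
RPKM of each polyamine gene in each library, 1 panel per gene with its own axis from 0, with points for libraries and bars for the group means. In all 8 panels the transgenic libraries lie on 1 side of both controls, by a wide gap for Odc1, Amd1 and Sat1 and by a narrow one for Sms and Oaz1.

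Odc1 encodes ornithine decarboxylase, the rate-limiting enzyme of putrescine synthesis, and lies at chr12:17544794-17551505 on the forward strand (GRCm38). It was at 29.0 and 26.3 RPKM in control muscle against 73.2 and 78.7 in transgenic muscle. Both transgenic libraries were far above both controls, and the difference was much larger than the spread within either group. The group means were 27.6 ± 1.97 and 75.9 ± 3.92 RPKM (SD, n = 2 each). On the log2(RPKM + 1) scale the difference was 1.43 (SE 0.16, 95% interval 1.03 to 1.82, limma adjusted p = 0.0154), the smallest p of the 8 genes. The values rest on 1944 and 2215 reads in control muscle against 5774 and 6137 in transgenic muscle. Without control library 2 the log2 fold change was 1.36 and the call was lost (limma adjusted p = 0.0847).

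Amd1 encodes S-adenosylmethionine decarboxylase and lies at chr10:40287458-40302186 on the reverse strand. It was at 60.0 and 56.5 RPKM in control muscle against 22.9 and 24.1 in transgenic muscle. The libraries of each group lay close together and the groups were well apart, with means of 58.3 ± 2.44 and 23.5 ± 0.832 RPKM (SD, n = 2 each). Its log2 fold change was -1.27 (SE 0.15, 95% interval -1.65 to -0.90, limma adjusted p = 0.0174). The call was lost without control library 1 (log2 fold change -1.23, adjusted p = 0.0501) and without control library 2 (-1.31, adjusted p = 0.0847). Amd2, a near-identical copy without introns, at chr10:35708675-35711892, is listed with the same number of reads as Amd1 in all 4 libraries. Transcripts of Amd1 and Amd2 are 99.1% identical, and 86.1% of the 50-base windows of the first occur in the second. How reads that match both were counted is not given. The level can therefore not be assigned to Amd1 or Amd2 alone, and which of them the reads came from cannot be told apart. The summed muscle fibre markers were also lower in both transgenic libraries, at 23934 and 27425 RPKM against 36455 and 41450, and their part in the fall of Amd1 was not tested.

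**Figure D2:**
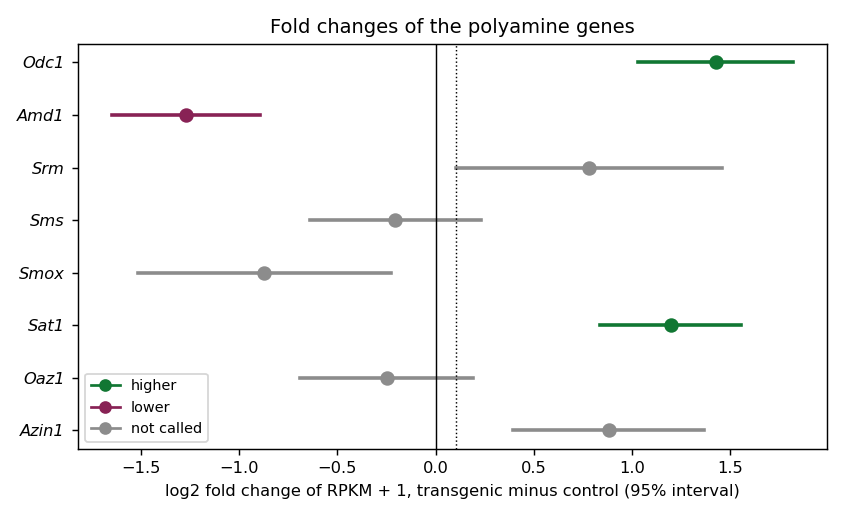
Log2 fold change, transgenic minus control, on the log2(RPKM + 1) scale for each polyamine gene, with 95% intervals from limma and a dotted line at the median of all tested genes, 0.10. Odc1 (1.43), Sat1 (1.20) and Amd1 (-1.27) were called, and the intervals of Sms and Oaz1 include 0.

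The opposite moves of Odc1 and Amd1 show most plainly as a ratio within a library, which does not depend on how libraries are scaled. For every Amd1 read there were 0.452 and 0.434 Odc1 reads in control muscle against 2.98 and 3.05 in transgenic muscle. Odc1 reads were thus fewer than Amd1 reads in both controls and more numerous in both transgenics, a 6.80-fold difference in the ratio. The ratio is built from genes already described above and adds no test.

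**Figure D3:**
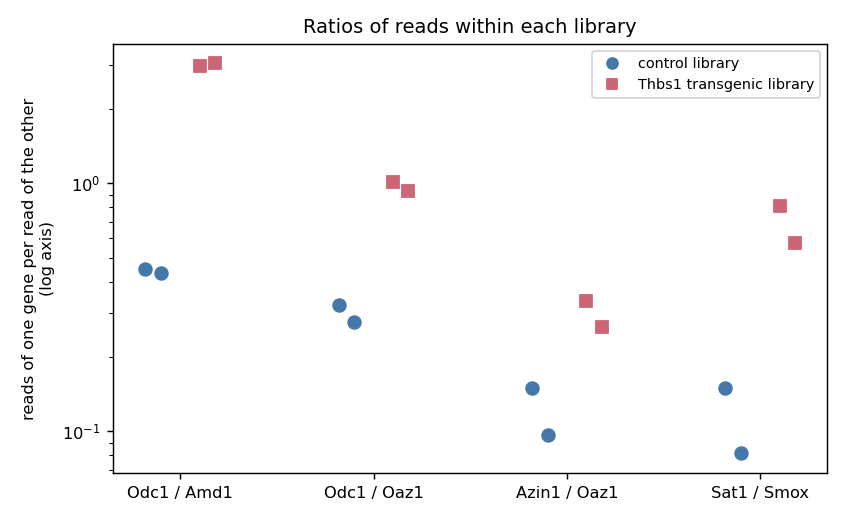
Ratios of reads between pairs of polyamine genes within each library, on a log axis, with points for libraries. Odc1 over Amd1 goes from 0.434 and 0.452 in controls to 2.98 and 3.05 in transgenics, and the groups are apart in each of the 4 ratios shown.

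Srm encodes spermidine synthase, which joins an aminopropyl group to putrescine, and lies at chr4:148591503-148594993 on the forward strand. Its level was low, at 1.87 and 3.23 RPKM in control muscle against 6.10 and 4.03 in transgenic muscle. Both transgenic libraries were above both controls, but the libraries within each group lay further apart than the nearest libraries of the 2 groups. The means were 2.55 ± 0.962 and 5.07 ± 1.46 RPKM (SD, n = 2 each), a ratio of 1.99. The log2 fold change of 0.78 (SE 0.27, 95% interval 0.10 to 1.46) did not pass the test (limma adjusted p = 0.138), and it was 0.50 without control library 1. The control libraries differed beyond counting error, with 4.18 (exact Poisson 95% interval 3.32 to 5.19) and 7.23 (6.06 to 8.55) RPM, reads scaled by library size alone.

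Sms encodes spermine synthase, the last step of the chain, and lies at chrX:157443855-157492287 on the reverse strand. It was at 39.2 and 41.6 RPKM in control muscle against 31.4 and 38.7 in transgenic muscle. The higher transgenic library was just below the lower control, and the means were 40.4 ± 1.74 and 35.1 ± 5.13 RPKM (SD, n = 2 each). The log2 fold change was -0.21 (SE 0.17, 95% interval -0.64 to 0.23, limma adjusted p = 0.496), and it ran from -0.40 to -0.01 over the alternatives, the latter with Thbs1 left out of the library sizes. A fall of up to 0.64 or a rise of up to 0.23 on that scale therefore lies within the interval.

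Sat1 encodes the acetyltransferase that marks spermidine and spermine for export or oxidation, and lies at chrX:155213132-155216449 on the reverse strand. It was at 5.68 and 5.69 RPKM in control muscle against 14.9 and 13.7 in transgenic muscle. The controls were nearly equal and both transgenic libraries were well above them, with means of 5.69 ± 0.006 and 14.3 ± 0.833 RPKM (SD, n = 2 each). Its log2 fold change was 1.20 (SE 0.14, 95% interval 0.84 to 1.55, limma adjusted p = 0.0175), resting on 175 to 489 reads a library. Without control library 1 or 2 the log2 fold change stayed at 1.20 while the call was lost (limma adjusted p = 0.0515 and 0.0899). The macrophage sums above were also higher in both transgenic libraries, at 276 and 308 RPKM against 64.2 and 95.4, and their part in the rises of Sat1 and Odc1 was not tested. The adipocyte sums of the transgenic libraries, 936 and 103 RPKM, were far apart, where the Sat1 levels of the same libraries were 14.9 and 13.7, and their part in the rise was not tested either.

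Smox encodes spermine oxidase, which turns spermine back into spermidine and releases hydrogen peroxide, and lies at chr2:131491496-131525922 on the forward strand. It was at 2.31 and 4.27 RPKM in control muscle against 1.12 and 1.46 in transgenic muscle. Control library 2 was the highest and stood well above control library 1, while the transgenic libraries were close to each other and below both. The means were 3.29 ± 1.38 and 1.29 ± 0.236 RPKM (SD, n = 2 each), 2.55-fold lower in transgenic muscle as a ratio. The log2 fold change was -0.87 (SE 0.25, 95% interval -1.51 to -0.23) and missed the threshold (limma adjusted p = 0.1). It was -0.54 without control library 2. The controls differed beyond counting error, with 61.9 (exact Poisson 95% interval 58.5 to 65.5) and 114 (110 to 119) RPM. For each Smox read there were 0.15 and 0.0814 Sat1 reads in control muscle against 0.811 and 0.576 in transgenic muscle, so the balance of reads between the breakdown genes was apart between the groups.

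The size of the Smox difference depends on the length its reads were divided by. The deposited RPKM divides its reads by a gene model of 26767 bases, 6.87 times the 3894 bases of its GENCODE exons, while over all matched genes that quotient has a median of 1.25. The low RPKM that follows brings the pseudocount of 1 close to the value. With exon length in place of the listed length the log2 fold change was -1.21, with a pseudocount of 0.1 it was -1.23, and with limma-voom on reads it was -1.30, or -1.49 with median-of-ratios factors. None of these passed the threshold, and over all alternatives the limma adjusted p of Smox ran from 0.0509 to 0.234.

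Oaz1 encodes antizyme, whose frameshift site is printed above, and lies at chr10:80826656-80829290 on the forward strand. It had the highest level of the 8 genes, at 202 and 212 RPKM in control muscle against 161 and 188 in transgenic muscle. Both transgenic libraries were below the controls, and the nearer of them was closer to a control than to the other transgenic library. The means were 207 ± 7.32 and 174 ± 19.2 RPKM (SD, n = 2 each), and the log2 fold change of -0.25 (SE 0.17, 95% interval -0.69 to 0.19) did not pass the test (limma adjusted p = 0.414). It ran from -0.44 to -0.05 over the alternatives, the latter with Thbs1 left out of the library sizes. There were 0.322 and 0.277 Odc1 reads for each Oaz1 read in control muscle against 1.02 and 0.936 in transgenic muscle, 3.26-fold more.

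Azin1 encodes antizyme inhibitor, a relative of ornithine decarboxylase without its activity, and lies at chr15:38487427-38519266 on the reverse strand. It was at 4.20 and 2.86 RPKM in control muscle against 7.56 and 6.94 in transgenic muscle. Both transgenic libraries were above both controls, and the controls were less alike than the transgenics. The means were 3.53 ± 0.952 and 7.25 ± 0.434 RPKM (SD, n = 2 each), a ratio of 2.05. The log2 fold change was 0.88 (SE 0.19, 95% interval 0.39 to 1.37) and did not pass the test (limma adjusted p = 0.0592). It was called without Thbs1 in the library sizes (1.06, adjusted p = 0.0305), with limma-voom (1.06, adjusted p = 0.0431) and with limma-voom and median-of-ratios factors (0.88, adjusted p = 0.0407). In the authors' deposited table its adjusted p was 0.0176. In the controls it had 52.9 (exact Poisson 95% interval 49.7 to 56.3) and 36.0 (33.3 to 38.8) RPM, so the controls differed beyond counting error. Its exons share 358 bases with Gm49077 on the opposite strand, and reads of the pair cannot be told apart where the strand of a read is unknown.

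Levels of different genes can be set side by side only per length, and their order depends on the length used. As RPKM recomputed with the length of GENCODE exons, the control means were 142 for Oaz1, 69.3 for Amd1, 32.0 for Odc1 and 30.1 for Sms. Below them came Smox at 22.6, Azin1 at 7.11, Srm at 3.57 and Sat1 at 3.35. The control libraries of Odc1 and Sms overlapped on this scale, as did those of Sms and Smox and those of Srm and Sat1, so the order within these pairs is not settled. In the transgenic libraries the order was Oaz1 at 120, Odc1 at 87.8, Amd1 at 28.0, Sms at 26.1 and Azin1 at 14.6. Smox at 8.87, Sat1 at 8.44 and Srm at 7.10 followed with overlapping libraries, and Amd1 and Sms overlapped as well. On this scale Odc1 had rank 3 of 8 in the control means and rank 2 in the transgenic means, and Amd1 the reverse. With the listed lengths the control ranks were 7 for Smox, 5 for Sat1 and 4 for Odc1, against 5, 8 and 3 with exon lengths. Sms had rank 3 and Srm rank 8, against 4 and 7. Joined exons can also exceed a transcript, as for Sat1, with 2774 bases against 1272 in its longest coding transcript and 1634 listed. Which length suits each gene was not tested.

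**Figure D4:**
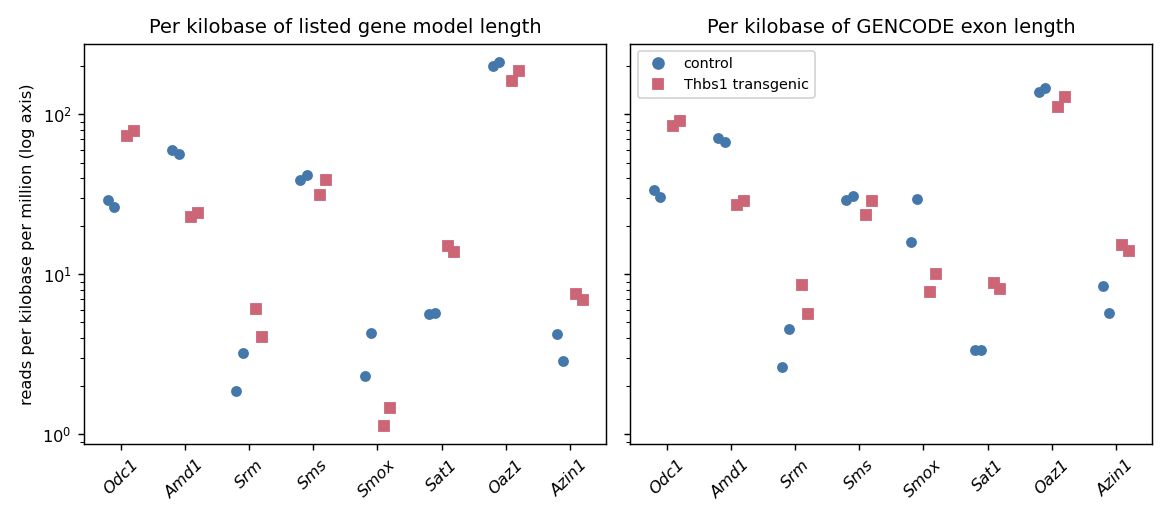
Level of each polyamine gene in each library (points), on a log axis, with reads divided by the listed gene model length, as in the deposited RPKM (left), and by GENCODE exon length (right). Smox lies far lower with the listed length, with a control mean of 3.29 against 22.6, while Oaz1 leads on both scales.

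Several of the other enzymes and regulators of the route were too low to test. Of 9 genes 8 were listed and 4 tested, with a median log2 fold change of -0.01, beside 0.10 over all tested genes. Of the 4, 1 was called higher and 1 lower, beside 6.25% and 1.22% of all tested genes. The lower one is Amd2, which repeats the reads of Amd1. Sat2, a relative of Sat1 that acts mainly on thialysine, was at 2.03 and 1.56 RPKM in control muscle against 3.71 and 3.97 in transgenic muscle (log2 fold change 0.80, limma adjusted p = 0.0459), and this call was lost in 10 of 12 alternatives. Oaz2, a second antizyme, was at 75.4 and 68.6 against 47.5 and 59.0 RPKM (-0.44, adjusted p = 0.196). Paox, the oxidase of acetylated polyamines, was at 1.73 on average in controls and 2.65 RPKM in transgenics (0.41, adjusted p = 0.171).

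Genes that supply arginine and ornithine held 9 tested of 13, with a median of 0.16. Of the 9, 3 were called higher and 1 lower, beside 6.25% and 1.22% of all tested genes. Aldh18a1, which makes the proline and ornithine precursor from glutamate, was at 0.454 and 0.207 RPKM in control muscle against 2.26 and 2.24 in transgenic muscle (log2 fold change 1.30, limma adjusted p = 0.0180). Gatm, which uses arginine for creatine synthesis and gives off ornithine, went from 1.96 to 4.64 RPKM (0.93, adjusted p = 0.0451). The arginine carriers parted: Slc7a1 went from 0.457 to 1.34 RPKM (0.68, adjusted p = 0.0454) and Slc7a2 from 5.68 to 2.12 (-1.08, adjusted p = 0.0466). Aldh18a1 and Slc7a1 were below 1 RPKM in both controls. Each could be tested only because of its transgenic level, which makes a rise more likely to be found than a fall. The calls of Gatm and Slc7a1 were lost in 9 of 12 alternatives, that of Slc7a2 in 5 and that of Aldh18a1 in 2. Oat, which links ornithine to glutamate and proline, was at 73.4 against 82.0 RPKM and was not called.

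In the methionine cycle and the salvage of methylthioadenosine, the by-product of spermidine and spermine synthesis, 0 of 11 tested genes of 17 were called by limma, with 0 at an unadjusted p under 0.05, 0 called by limma-voom and a median log2 fold change of -0.02. Of 8 tested transport genes out of 13, 1 was called higher and 0 lower, beside 6.25% and 1.22% of all tested genes. The called gene was Slc7a5, the light chain of a neutral amino acid exchanger, at 0.919 and 1.26 RPKM in control muscle against 4.02 and 3.20 in transgenic muscle (1.14, limma adjusted p = 0.0283, lost in 4 of 12 alternatives). Only 1 control library reached 1 RPKM for Slc7a5, so it too was tested through its transgenic level. Of 4 genes for eIF5A and its hypusine modification, which is made from spermidine, 3 were tested and 0 were called by limma or limma-voom. At an unadjusted p under 0.05 there were 0, and the median was 0.05. Over all 10015 tested genes, limma called 748 and had 2791 at an unadjusted p under 0.05.

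Among 8 regulators known for links to these genes, 7 were tested. By limma 1 was called higher and 0 lower, beside 6.25% and 1.22% of all tested genes. Of the 7, 4 were at an unadjusted limma p under 0.05, as were 2791 of all 10015 tested genes. Limma-voom called 1, and 2 with median-of-ratios factors. Cdkn1a, the cell cycle inhibitor p21, was at 5.89 and 7.48 RPKM in control muscle against 35.5 and 42.3 in transgenic muscle (log2 fold change 2.38, limma adjusted p = 0.0078), and its call was lost without control library 2 (2.53, adjusted p = 0.0668). Myc, a known activator of Odc1, was at 0.224 and 0.149 RPKM in control muscle against 0.430 and 0.469 in transgenic muscle, below the filter, and Atf4 went from 64.7 to 76.4 RPKM without a call (adjusted p = 0.391).

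The genes whose profile over the 4 libraries was most like that of Odc1 were Fbln7, Uggt1 and Adck4, at Euclidean distances of 0.087, 0.093 and 0.107 between log2(RPKM + 1) profiles after each gene's mean was taken off. Fbln7, which encodes fibulin-7, went from 2.12 to 7.55 RPKM. Uggt1, the glucosyltransferase that checks glycoprotein folding, went from 3.31 to 10.2 RPKM. Adck4, a kinase-like protein of coenzyme Q synthesis, went from 0.999 to 4.14 RPKM. With 4 libraries many genes come close, and likeness here describes the libraries alone.

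**Figure D5:**
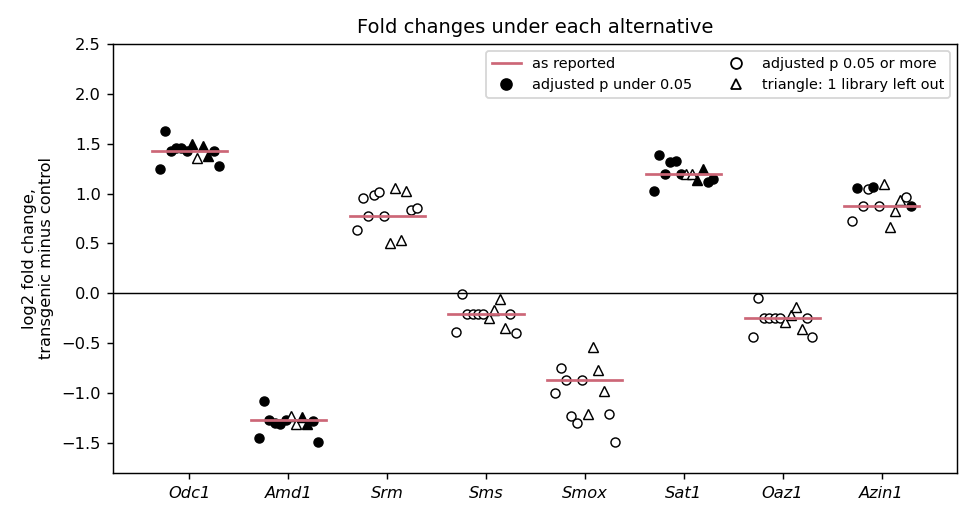
Log2 fold change of each polyamine gene as reported (line) and under each of 12 alternatives (circles, or triangles where 1 library was left out), filled where the limma adjusted p was under 0.05. No gene crosses 0, the open triangles of Odc1, Amd1 and Sat1 are fits without a control library, and Azin1 is filled in 3 of 12.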

How the data were processed

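RNA of 2 control and 2 Thbs1 transgenic quadriceps libraries was analysed, grouped by sample title. Per the submitters' processing notes, bcl2fastq, TopHat and edgeR were used with the mouse build mm10, without stated versions. Counting method, annotation and strandedness are not given in the sources used here. In the deposited table each library has an RPKM value per gene. The authors' base means are signal values, means of size-factor-scaled reads, and the authors' deposited table adds a ratio of base means and a p-value with its adjusted p-value for each gene. RPKM and base means together fix the reads behind each value, which came out whole within 0.01 of a read for all 64568 values above 0, with a largest deviation of 1.86e-09. Those reads gave depths, exact Poisson intervals at 95%, which cover counting error only, and limma-voom. The plan held a count model in case the files gave counts; they give RPKM, and the test for normalised values was used.

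The test took the 10015 genes that reached 1 RPKM in 2 or more libraries. It used limma 3.58.1 (R 4.3.3) on log2(RPKM + 1), with a mean-variance trend, two-sided and without covariates. Benjamini-Hochberg adjustment ran over all tested genes, with a threshold of 0.05. A fold in RPKM is the ratio of group means. The test was checked on simulated data. Alternatives were median-of-ratios scaling, Thbs1 left out, no filter, a pseudocount of 0.1, limma-voom, the replicate number as a block, each library left out, and a threshold of 0.1. GENCODE exon length and limma-voom with median-of-ratios factors were added after seeing the data.

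The polyamine genes and the lists were chosen with earlier results of these data known. Named genes are Thbs1, the 8 polyamine genes, called genes and others needed to describe each pathway list, and the 3 genes nearest to the one of the 8 with the smallest p. One gene of the regulator list is not reported here. Sdc4, Cd68, the markers named below the filter and the low genes named at the end were chosen after their values were seen. Positions, transcripts and exon lengths are from GENCODE M21, whose assembly GRCm38 is that of mm10, and promoters from RefSeq on GRCm38.p6. Promoters were matched for 6 of the 8 genes, all but Srm and Azin1. Tables and figures were made with matplotlib 3.10.9, pandas 2.3.3 and numpy 2.4.6 in Python 3.11.15.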

Additional observations from a re-analysis of the deposited data

How the results depend on the processing

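No polyamine gene turned direction under any of the 12 alternatives run. Of the polyamine genes, 0 to 3 were changed when a library was left out, with 0 to 2 higher and 0 to 1 lower. Odc1 was the gene still called without control library 1, and none was called without control library 2. The log2 fold changes over the libraries left out were 1.356 to 1.496 for Odc1, -1.315 to -1.231 for Amd1 and 1.141 to 1.251 for Sat1. Azin1 passed the threshold without Thbs1 in the library sizes (1.06), with limma-voom (1.06, or 0.88 with median-of-ratios factors, an added alternative) and at an adjusted p under 0.1 (0.88). Counts over all genes moved by over 1.5 times without Thbs1 (1591 changed, 1486 higher), with no filter (146 changed, 135 higher, 11 lower) and at an adjusted p under 0.1 (1705 changed, 1303 higher, 402 lower). Median-of-ratios scaling gave 244 genes lower, and 469 were lower with limma-voom and those factors. Over all genes, the fits that leave out a library ranged from 1 to 651 changed, from 1 to 593 higher and from 0 to 104 lower. The lowest, 1, came without control library 2, where limma had 1987 at an unadjusted p under 0.05. A lone library is then assumed to vary like the other group. The cause of these moves was not tested. A replicate block left 64 genes lower and the calls of Odc1, Amd1 and Sat1 held (limma adjusted p = 0.0356, 0.038 and 0.0351). The deviations of libraries with the same number correlated at 0.0742 over the tested genes. That value cannot exclude handling that such libraries share and that moves only some genes. With 2 libraries a group the 95% intervals are wide, and a gene without a call may still differ.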

Other observations

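Some genes of the route were too low for the test. Agmat, an enzyme named for making putrescine from agmatine, had 3 and 2 reads in control muscle against 25 and 27 in transgenic muscle. With no filter on low values its log2 fold change was 0.54 (limma adjusted p = 0.0476), on a scale where the pseudocount exceeds its RPKM in every library. Oaz3, the antizyme of the testis, had 1 read in all, Aoc1, a diamine oxidase, had 7 reads in transgenic library 1 and none elsewhere, and Satl1 was listed at 0 in all libraries. Arg1, the liver arginase that can supply ornithine, had 3 and 1 reads in control muscle against 1 and 1 in transgenic muscle, and Otc, of the urea cycle, was listed at 0.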
